A study of Mus musculus with 10 samples.

Results

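Early life stress (ELS) in mice, a nest made fragmentary in the first weeks of life, was set against undisturbed rearing in adult animals that were not stressed again. The comparison is the difference in ribosome-bound mRNA between unstressed ELS mice and unstressed controls, and its members are all genes with a mean group value of at least 3 over the 4 groups of the series. That left 14986 of 20171 genes, and 5 of the 10 listed libraries belong to these groups, 3 to ELS mice and 2 to controls. All animals were male C57BL/6 mice 70 to 90 days old. For ELS, dam and pups lived from postnatal day 2 to 12 on a wire grid with reduced nesting material, while control litters had a whole nestlet and no grid, and all pups were weaned on day 21. The other groups, ELS mice exposed to AS (labelled ELS+FST) and controls exposed to AS (labelled FST), underwent a forced swim of 6 min (2 L of water, 25°C) and rested for 1 h. The labels name the source as CA3 neurons and the genotype as wild type, whereas by the study's methods the sequenced mice carried a Gprin3-BacTRAP transgene, in which the Gprin3 promoter drives a GFP-tagged ribosomal protein. Each library pooled 5 to 6 mice, so no value belongs to a single animal.

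CA3 is the part of the hippocampus in which pyramidal cells excite one another through dense recurrent connections and receive the mossy fibers of the dentate gyrus. Its neurons carry both mineralocorticoid and glucocorticoid receptors, and their dendrites are known to retract under prolonged stress. Translating ribosome affinity purification (TRAP) recovers the mRNA on tagged ribosomes, together with some RNA of neighboring cells that sticks to the beads.

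The deposited table gives 1 value per gene and group, a regularized logarithm (rlog) on the log2 scale. A difference of 1 therefore stands for a doubling, but rlog shrinks differences of genes with few reads. As there is 1 value per group, no difference below has a replicate error, and each is a description without a test. Differences of over 0.5 were counted across all genes, and those of over 0.25 within gene lists. The controls stood apart from the other groups. The median distance of a gene from the median of the 3 other groups was 0.07 for ELS mice, 0.13 for unstressed controls, 0.07 for ELS mice exposed to AS and 0.07 for controls exposed to AS. The value of ELS mice was more than 0.5 above all other groups for 2 genes and as far below them for 4, against 131 and 78 genes for unstressed controls. With 1 value per group, an effect of rearing and a peculiarity of the control libraries cannot be told apart, so the ELS difference after the swim, which shares no library with it, is given for the gene lists and for the members that the text turns on.

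Most genes differed little between unstressed ELS mice and unstressed controls. The middle 50% of differences lay between −0.15 and 0.14, and the central 90% between −0.35 and 0.35. ELS mice were higher by over 0.5 for 195 genes, 1.3% of those counted, and lower by over 0.5 for 288 genes, or 1.92%. At over 1 there were 5 genes higher (0.0334%) and 18 lower (0.12%). At over 0.25 the counts were 1755 higher (11.7%) and 1777 lower (11.9%), and the counts within gene lists below stand against these shares. Genes higher by over 0.5 were most frequent at mean values between 3 and 6, and genes lower by over 0.5 between 6 and 9. Both were less frequent at means above 9. Of the 3107 genes with a mean value between 3 and 6, ELS mice were higher by over 0.5 for 101 (3.25%) and lower for 77 (2.48%). Of the 4660 genes between 6 and 9 they were higher for 66 (1.42%) and lower for 150 (3.22%). Of the 5906 genes between 9 and 12 they were higher for 23 (0.389%) and lower for 56 (0.948%). The genes just inside the minimum mean, Sh3tc1 and Clec4a2, differed by −0.12 and −0.24, and those just outside it, Wfdc1 and Ube2u, by 0.02 and −0.10.

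Of the 15 genes furthest above controls, 8 are annotated as protein-coding and the others are non-coding genes, pseudogenes or a gene without an annotation. The long non-coding RNA 1700113A16Rik led with 8.22 in ELS mice against 6.30 in controls, a difference of 1.92. The gene Rpgrip1, for a ciliary protein known from photoreceptors, had 7.36 in ELS mice and 6.29 in controls, a difference of 1.07. Both lie opposite another gene, 1700113A16Rik opposite Mef2d (−0.20) and Rpgrip1 opposite Supt16 (−0.35), and the library kit does not mark strand, so reads of the partners cannot be separated. Other genes of this end were Gm8801 (1.49), 1500017E21Rik (1.39), Gm11837 (1.38), 2900052N01Rik (0.98), E130114P18Rik (0.89) and Gm10653 (0.82). The same limit holds for Gm11837 opposite Necab1 (0.26), E130114P18Rik opposite Nfia (0.38) and Gm10653 opposite Calml4 (0.02) and Cln6 (−0.02). It also holds for Rad9b opposite Pptc7 (−0.16), and Apol7b and Mt2 overlap other genes too. Further protein-coding members were Apol7b (1.00), Zglp1 (0.94), Rad9b (0.94), the stress-induced chromatin protein gene Nupr1 (0.89), the metallothionein gene Mt2 (0.92) and the alpha globin gene Hba-a2 (0.91). Zglp1 overlaps Gm49373 on the same strand, as does Gm38431 among the lowest genes, so its reads cannot be assigned with certainty. The major histocompatibility gene H2-T10 (0.97) is annotated as a polymorphic pseudogene in a family of near-identical copies, so its value is uncertain. The ELS differences of these 15 genes after the swim lay between −0.61 (Zglp1) and 0.24 (Apol7b).

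Of the 15 genes furthest below controls, 14 are annotated as protein-coding, among them genes of signaling and transcription. Uhmk1, a kinase that binds RNA and splicing factors, had 8.15 in ELS mice against 9.43 in controls, a difference of −1.28. Cbl, a ubiquitin ligase that ends signaling of receptor tyrosine kinases, had 6.60 in ELS mice and 7.82 in controls (−1.22). Adnp, a chromatin-bound neuroprotective homeobox protein, had 6.45 in ELS mice and 7.58 in controls (−1.13). In each of the 3 genes ELS mice lay more than 1 below controls, and mice after the swim lay close to ELS mice, with Uhmk1 at 8.34 in ELS mice exposed to AS and 8.44 in controls exposed to AS. The zinc finger gene Zkscan16 (−1.10), the transcription elongation factor gene Aff2 (−1.09), the cyclic nucleotide phosphodiesterase gene Pde11a (−1.06), the palmitoyltransferase gene Zdhhc23 (−1.06), the amino acid transporter gene Slc36a4 (−1.07) and the postsynaptic gene Lzts1 (−1.04) followed, with Uprt (−1.09), Megf9 (−1.05), Xpnpep3 (−1.05) and the pseudogene Rpl14-ps1 (−1.15). Xntrpc (−1.34) is a readthrough of Xndc1 (−0.01) and Trpc2, whose own difference was 1.07 at a mean below 3, and Gm38431 (−1.24) overlaps Fdx1l (0.42) on the same strand, so the reads of these loci cannot be separated with certainty. Uhmk1, Cbl, Adnp, Aff2, Pde11a, Xpnpep3 and Rpl14-ps1 overlap other genes too. As a pseudogene copy, Rpl14-ps1 may also share reads with Rpl14 (0.35), so its value is uncertain. Among mice after the swim, the ELS differences of the 15 lowest genes lay between −0.32 (Xntrpc) and 0.24 (Pde11a).

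**Figure D1:**
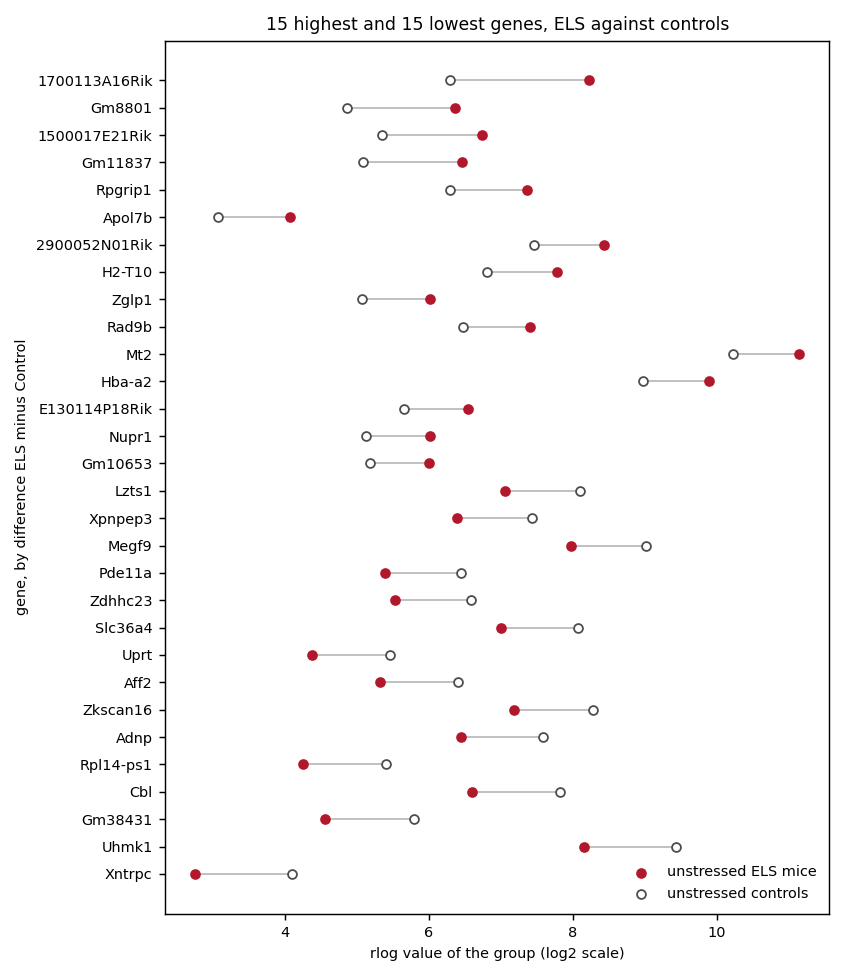
Group values of the 15 highest and 15 lowest genes, with unstressed ELS mice as filled points and unstressed controls as open points on the rlog (log2) scale, 1 value per group. The differences run from 1.92 for 1700113A16Rik at the top to −1.34 for Xntrpc at the bottom.

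Markers of CA3 pyramidal cells were mostly below controls. The labelled source was CA3 neurons, whose markers had a median value of 9.73 in ELS mice and 9.87 in controls. Markers of cells that are not the labelled source were recovered too, with a median value of 9.73 in ELS mice and 9.90 in controls for CA1 cells, 10.30 in ELS mice and 10.06 in controls for astrocytes, and 9.39 in ELS mice and 9.82 in controls for oligodendrocytes. Of 18 CA3 markers, 1 was higher (5.56%) and 10 were lower (55.6%) in ELS mice by over 0.25, against 11.7% and 11.9% of all genes. Their median difference was −0.26, against −0.01 over all genes, and −0.10 after the swim. Gprin3, whose promoter drives the tag, had 6.70 in ELS mice against 7.47 in controls, 6.73 in ELS mice exposed to AS and 6.92 in controls exposed to AS. The controls were the highest of the 4 groups for Gprin3. The collagen gene Col6a1 differed by −0.62 (5.03 in ELS mice, 5.65 in controls), the cadherin gene Cdh24 by −0.60 and the neuropeptide Y receptor gene Npy2r by −0.47, while the imprinted membrane protein gene Nnat differed by 0.29. The CA3 transcription factor gene Neurod6 was at 13.88 in ELS mice and 13.87 in controls. The 12 CA1 and 12 CA2 markers each had a median of −0.14, and the 11 markers of hilar mossy cells had a median of −0.13, against 0.09, −0.03 and −0.01 after the swim. The CA2 gene Pcp4, for a calmodulin-binding peptide, stood out from its list at 12.11 in ELS mice and 11.45 in controls, a difference of 0.66. Markers of dentate granule cells had a median of −0.23 over 15 genes, with 1 higher and 6 lower by over 0.25, among them the granule cell transcription factor gene Prox1 (−0.41) and the desmosome gene Dsp (−0.52). The 25 interneuron markers were divided, with 6 higher and 6 lower and a median of 0.01 (0.18 after the swim). Pvalb, the calcium buffer of fast-spiking cells, differed by 0.60 (9.79 in ELS mice, 9.19 in controls). In ribosome-bound RNA of this kind, fewer cells of a type and less RNA per cell, among other sources, cannot be told apart.

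Microglial genes were higher in ELS mice. Of 22 markers of microglia, the resident macrophages of the brain, 15 were higher and none was lower by over 0.25, and 21 were higher by any amount, with a median difference of 0.30. Ly86 had 5.53 in ELS mice and 4.74 in controls (0.79). Tyrobp, the signaling adaptor of Trem2, had 5.65 in ELS mice and 4.87 in controls (0.78). Aif1, the gene for the microglial marker Iba1, had 6.34 in ELS mice and 5.70 in controls (0.63), and Fcer1g differed by 0.58. ELS mice lay above controls in all 4 genes without the swim. After the swim their ELS differences were smaller, with 0.24 for Ly86, 0.14 for Tyrobp, 0.09 for Aif1 and 0.11 for Fcer1g.

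The complement component C1q, which tags synapses for removal by microglia, is built from the products of 3 genes. C1qa had 7.05 in ELS mice against 6.60 in controls, and 7.32 in ELS mice exposed to AS against 6.97 in controls exposed to AS. C1qb had 6.83 in ELS mice against 6.36 in controls, and 7.21 in ELS mice exposed to AS against 6.76 in controls exposed to AS. C1qc had 6.77 in ELS mice against 6.36 in controls, and 7.06 in ELS mice exposed to AS against 6.65 in controls exposed to AS. All 3 were thus higher by 0.35 to 0.47 in ELS mice of either swim state. The receptor gene Trem2 differed by 0.45 without and by 0.40 after the swim, and the chemokine receptor gene Cx3cr1 by 0.28 and 0.35. Over the whole microglial list the median after the swim was 0.35, and 9 of 22 markers were higher by over 0.25 in both differences, against 0.928% of all genes counted. Microglial markers lay low in these libraries, with a median value of 6.04 in ELS mice and 5.65 in controls, and the tag is not driven in microglia by design.

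Other glial and vascular lists moved less without the swim. The 24 astrocyte markers had a median of 0.10, with 3 higher (12.5%, close to the 11.7% of all genes) and none lower by over 0.25. The calcium-binding protein gene S100b (0.61) and the fatty acid carrier gene Fabp7 (0.46) led them. Oligodendrocyte markers were split, with 7 of 23 higher and 7 lower by over 0.25 and a median of −0.07. The myelin gene Mobp had 12.16 in ELS mice and 11.55 in controls, while the myelin gene Mag had 9.39 in ELS mice and 9.82 in controls. Markers of endothelial and mural cells had a median of 0.05, those of choroid plexus and ependyma 0.06, and those of fibroblasts −0.00, against −0.09, −0.04 and 0.17 after the swim. The abundant choroid plexus gene Ttr was at 11.71 in ELS mice and 11.54 in controls. After the swim the picture differed, with a median ELS difference of 0.51 for astrocyte, 0.55 for oligodendrocyte and 0.39 for dentate granule cell markers. The part of cell composition in the differences was not tested.

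**Figure D2:**
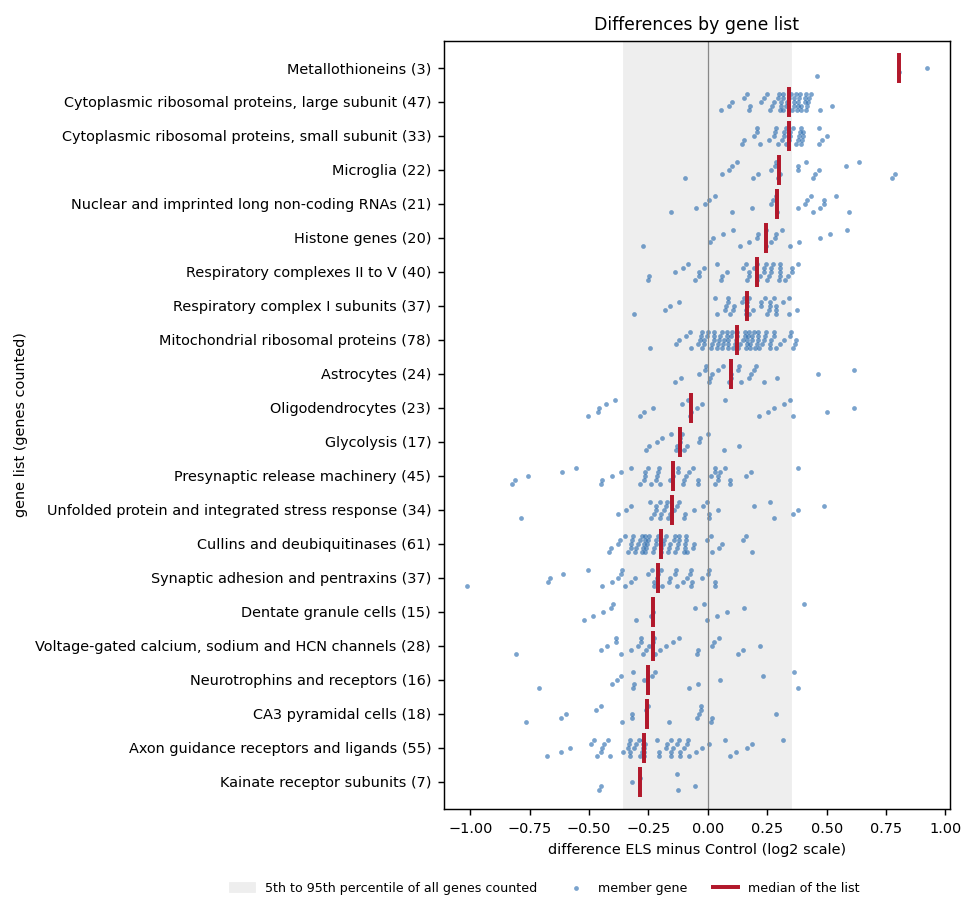
Difference ELS minus Control for every counted member of 22 gene lists (blue points) with the list's median (red bar) and the central 90% of all genes (grey band), on the log2 scale. Metallothioneins, ribosomal proteins and microglial markers lie to the right of 0, and axon guidance and kainate receptor genes to the left.

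Genes for the proteins of the cytoplasmic ribosome were higher in ELS mice without exception among those counted. The ribosome joins a large and a small subunit, and its protein genes are typically short, abundant and translated under the control of a pyrimidine run at the very start of the mRNA, which mTOR signaling acts on. All 47 genes of the large subunit and all 33 of the small subunit were above controls, against 48.5% of all genes counted, and both lists had a median of 0.34. By over 0.25, 37 and 27 of them were higher and none was lower. To show this start, the sequence around the annotated first base (GRCm38.p6, RefSeq) is printed for the 4 genes with the largest differences of the 14 ribosomal protein genes in which it was found, 30 bases before and 20 bases from the start on, with the pyrimidine run in capitals. Rps27 lies at chr3:90213629-90213678 (minus strand), Rpl38 at chr11:114668550-114668599 (plus), Rpl35 at chr2:39005112-39005161 (minus) and Rps21 at chr2:180257349-180257398 (plus).
Rps27: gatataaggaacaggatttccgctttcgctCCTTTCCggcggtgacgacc
Rpl38: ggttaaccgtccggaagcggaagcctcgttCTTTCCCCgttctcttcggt
Rpl35: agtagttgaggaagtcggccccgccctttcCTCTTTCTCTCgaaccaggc
Rps21: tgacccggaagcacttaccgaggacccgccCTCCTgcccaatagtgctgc

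Rps27 had 11.12 in ELS mice against 10.64 in controls, a difference of 0.48. Rpl38 had 11.70 in ELS mice and 11.28 in controls (0.41), Rpl35 had 11.56 in ELS mice and 11.15 in controls (0.41), and Rps21 had 11.53 in ELS mice and 11.14 in controls (0.39). These are the upper end of the 14 genes, whose differences went down to 0.15 for Rps15a and 0.17 for Rpl15. A C followed by at least 4 pyrimidines at the annotated start was found in 14 of 59 ribosomal protein genes with a sequence (23.7%), in 0 of 69 mitochondrial ribosomal protein genes and in 3.02% of the 11559 counted genes with a sequence. When this motif could begin within 5 bases of the annotated start, it was found in 29 of the 59 genes (49.2%). The shares were then 24.6% of mitochondrial ribosomal protein genes and 23.8% of counted genes with a sequence. The median difference was 0.36 for the 14 genes with the motif at the annotated start and 0.33 for the 45 without it there. Some of the 45 had it within 5 bases, so these medians do not separate genes with and without such a run. At the annotated start the motif was as frequent in genes higher by over 0.5 (2.9%) as in genes lower by over 0.5 (2.96%). Within 5 bases these shares were 22.5% and 22.7%.

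Within the ribosome the differences ranged from 0.05 for Rpl3, which had 13.80 in ELS mice and 13.75 in controls, to 0.52 for Rpl37, which had 11.39 in ELS mice and 10.87 in controls. Rpl37a (0.47), Rps29 (0.50) and Rps12 (0.47) were near the upper end, and Rpl22 (0.09), Rplp0 (0.10) and Rps28 (0.14) near the lower. After the swim the ribosomal protein genes did not stand above 0, with a median ELS difference of −0.03 for the large and −0.00 for the small subunit, and no member past 0.25 in either direction, against 6.89% of all genes higher and 2.6% lower by as much. The median value over the large-subunit genes was 12.03 in unstressed controls, the lowest of the 4 groups. It was 12.31 in ELS mice, 12.24 in ELS mice exposed to AS and 12.34 in controls exposed to AS. For the small subunit it was 11.82 in unstressed controls, also the lowest, and 12.11, 12.12 and 12.16 in those groups. Other parts of the translation apparatus differed from the ribosomal proteins in direction or size. Mitochondrial ribosomal proteins had a median of 0.12, with 13 of 78 higher by over 0.25 (−0.02 after the swim). Initiation and elongation factors had a median of −0.00 (0.03 after the swim), with 5 higher and 5 lower of 52, including the initiation factor gene Eif1 (0.32) and the translation repressor gene Eif4ebp2 (−0.69). Of the 20 cytoplasmic aminoacyl-tRNA synthetases, which charge tRNAs with amino acids, 18 lay below controls (51.5% of all genes did), with a median of −0.11 (0.05 after the swim).

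**Figure D3:**
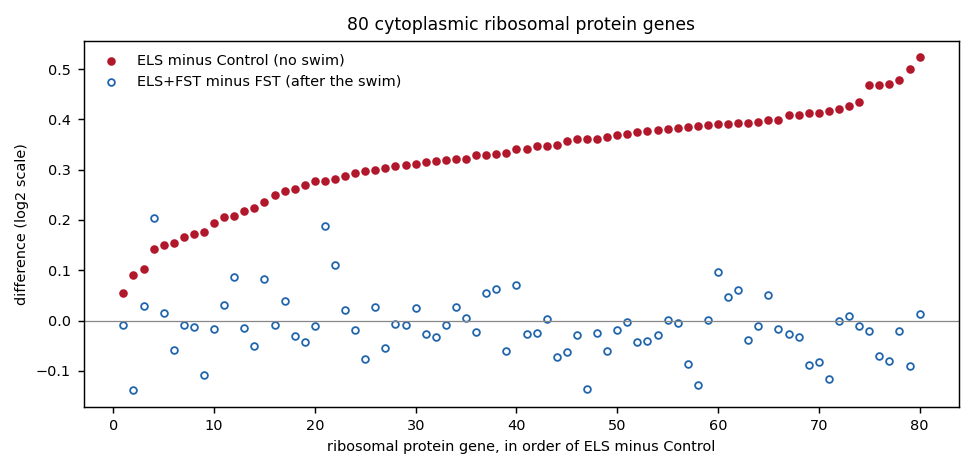
The ELS difference of 80 cytoplasmic ribosomal protein genes without the swim (filled points) and after the swim (open points) on the log2 scale, in order of the difference without the swim. All filled points lie above 0, from 0.05 to 0.52, and the open points lie around 0.

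Subunits of the respiratory chain were mostly above controls. Complex I takes electrons from NADH, and 33 of its 37 counted subunit genes were above controls, with a median of 0.16. The accessory subunit genes Ndufs5 (11.89 in ELS mice, 11.52 in controls), Ndufc1 (0.34) and Ndufb7 (0.34) were highest. Genes below controls included Ndufs1 (11.49 in ELS mice, 11.80 in controls) and Ndufv1 (−0.18), which code for core subunits, and Ndufa9 (−0.12). Complexes II to V had a median of 0.21 over 40 genes, with 14 higher and 1 lower by over 0.25. Cox7c (0.38), Atp5e (0.36) and Cox8a (0.35) were highest, and Sdha and Atp5b (−0.25 each) and Atp5a1 (−0.14) were lowest. The medians after the swim were −0.02 for complex I and −0.04 for complexes II to V, and with the trend in transcript length described below removed they were −0.01 and −0.02. Glycolysis (−0.12, 17 genes) and the tricarboxylic acid cycle (−0.05, 20 genes) had medians slightly below 0, and of 0.00 and 0.04 after the swim.

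All 3 metallothionein genes were higher in ELS mice. Metallothioneins bind zinc and copper through cysteines, and transcription of Mt1 and Mt2 is driven by metals and by glucocorticoids, while Mt3 is the form enriched in brain. Metals act through the factor MTF-1 and metal response elements, whose core is TGCGCNC or TGCACNC on either strand. By GENCODE M21 the Mt2 gene begins at 94172664, beyond the stretch printed here, so the place of its cores relative to the start depends on the annotation. For Mt1 too, the place of the cores rests on the annotated RefSeq start alone and may not be that of the start in use. To show where the core lies, 60 bases before and 30 bases from the RefSeq start on are printed with the core in capitals (GRCm38.p6, plus strand, chr8:94179029-94179118 for Mt1 and chr8:94172558-94172647 for Mt2).
Mt1: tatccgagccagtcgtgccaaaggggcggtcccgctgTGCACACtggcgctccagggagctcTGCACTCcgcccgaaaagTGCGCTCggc
Mt2: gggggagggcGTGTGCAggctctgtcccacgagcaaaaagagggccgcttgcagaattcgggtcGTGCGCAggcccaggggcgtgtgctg

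Mt1 had 12.18 in ELS mice against 11.37 in controls, a difference of 0.80. Mt2 had 11.15 in ELS mice against 10.22 in controls, a difference of 0.92, and Mt3 had 13.57 in ELS mice against 13.11 in controls, a difference of 0.46. For each of them controls were the lowest of the 4 groups, and after the swim the ELS difference was −0.11 for Mt1, −0.03 for Mt2 and −0.13 for Mt3. The core was found in all 3 promoters, and also in 40.4% of the promoters of all counted genes, in 24.6% of those of genes higher by over 0.5 and in 40.4% of those of genes lower by over 0.5. Globin genes, which mark red blood cells, were higher as well. Hba-a2 had 9.89 in ELS mice and 8.98 in controls, Hbb-bs had 9.20 in ELS mice and 8.53 in controls, and Hbb-b2 had 7.10 in ELS mice and 6.35 in controls. The heme synthesis gene Alas2 differed by 0.41, whereas Bpgm, which neurons also express, differed by 0.05. In mice that had swum, the ELS difference was −0.06 for Hba-a2, −0.01 for Hbb-bs and −0.02 for Hbb-b2. Globin genes are near-identical copies, so the division of reads among them is uncertain.

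Receptors for stress hormones differed between the 2 types. Nr3c2, the mineralocorticoid receptor, had 11.32 in ELS mice against 11.90 in controls, a difference of −0.59. Nr3c1, the glucocorticoid receptor, had 11.17 in ELS mice and 11.15 in controls, and its co-chaperone gene Fkbp5 had 11.13 in ELS mice and 11.16 in controls. After the swim the ELS difference was 0.13 for Nr3c2, 0.18 for Nr3c1 and 0.00 for Fkbp5. Among 27 genes known to be induced by glucocorticoids, 9 were higher and 3 lower by over 0.25, with a median of 0.04 (0.06 after the swim). Besides the metallothioneins, the hypoxia-inducible factor gene Hif3a (0.38) was high in this list, and the transcription factor genes Zbtb16 (−0.62) and Klf9 (−0.35) and the phosphatase gene Dusp1 (−0.42) were low. The list of stress peptides and their receptors had a median of −0.05, with 1 of 21 higher and 7 lower by over 0.25, and of 0.26 after the swim. Pomc, the precursor of ACTH and endorphin, had 5.24 in ELS mice and 4.77 in controls, while the granin gene Scg2 had 9.90 in ELS mice and 10.46 in controls and the enkephalin precursor gene Penk differed by −0.34. Crh was near the lower limit, at 3.90 in ELS mice and 3.71 in controls.

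Immediate early genes, which neurons transcribe within minutes of firing, were little different as a group, with a median of −0.01 (0.02 after the swim) and 2 of 41 higher and 7 lower by over 0.25. Npas4, which is switched on by calcium entry, had 6.77 in ELS mice against 7.28 in controls, and 7.53 in ELS mice exposed to AS against 7.90 in controls exposed to AS, so that ELS mice were lower in both swim states. The phosphatase gene Dusp4 (−0.55) was also low, and Egr1 (0.22) and Jund (0.27) were near the upper end. Among 21 clock genes the nuclear receptor gene Rorb differed by 0.58 and the output gene Dbp by 0.33, while Cry2 differed by −0.27. The clock list had a median of 0.06, and of 0.04 after the swim.

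Genes of the synapse lay below controls more often than above. Among 45 genes of the presynaptic release machinery, 1 was higher and 15 were lower by over 0.25, with a median of −0.15 (0.01 after the swim). Rims1, an organizer of the active zone, had 9.96 in ELS mice and 10.72 in controls (−0.76), and the vesicle protein gene Sv2c differed by −0.82. The priming factor gene Unc13c differed by 0.38 and the complexin gene Cplx2 by 0.18. Of 37 adhesion proteins and pentraxins of the synapse, none was higher and 14 were lower by over 0.25, with a median of −0.21. That median was 0.04 after the swim, and −0.08 with the length trend removed. Nptxr, the pentraxin receptor, had 10.86 in ELS mice and 11.88 in controls, and the synapse-organizing genes Slitrk3 (−0.66) and Slitrk4 (−0.61) followed. All 7 genes of the kainate receptor list were below controls, led by the subunit gene Grik2 (8.52 in ELS mice, 8.98 in controls) and the auxiliary subunit gene Neto1 (11.03 in ELS mice, 11.48 in controls). The others were Grik4 (−0.32), Grik1 (−0.29), Grik3 (−0.13), Neto2 (−0.13) and Grik5 (−0.05). Kainate receptors serve the mossy fiber synapse on CA3 cells, and their list had a median of −0.07 after the swim. Scaffolds of the postsynaptic density had a median of −0.04 (−0.03 after the swim).

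Voltage-gated calcium, sodium and HCN channels had a median of −0.23, with none higher and 12 lower by over 0.25 of 28. That median was −0.06 after the swim, and −0.09 with the length trend removed. Cacna1e, the pore of R-type calcium channels, had 9.41 in ELS mice and 10.22 in controls, a difference of −0.81, and the leak channel gene Nalcn differed by −0.45. Neurotrophins and their receptors had a median of −0.25, with 2 higher and 8 lower of 16 (median 0.09 after the swim). The lowest members were sorting receptors of the sortilin family, Sorl1 (9.10 in ELS mice, 9.81 in controls), Sorcs1 (−0.40) and Sort1 (−0.38), and the ligand genes Nrtn (0.38) and Ntf3 (0.23) were high.

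Axon guidance genes had a median of −0.27 over 55 genes, with 1 higher and 29 lower by over 0.25. Epha3, an ephrin receptor, had 6.08 in ELS mice and 6.75 in controls. The secreted repellents Slit3 (7.81 in ELS mice, 8.43 in controls) and Slit1 (9.47 in ELS mice, 10.05 in controls) differed by −0.62 and −0.58. The ephrin ligand genes Efna5 (0.31) and Efna2 (0.19) were highest. After the swim the list had a median of 0.02. Protocadherin genes outside the clusters, with the large cadherins of the Celsr, Fat and Dchs families, had a median of −0.22 over 18 genes, with none higher and 9 lower by over 0.25. That median was 0.08 after the swim, and −0.08 with the length trend removed.

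The clustered protocadherins, chosen as a family after their values were seen, are cell-surface proteins of which each neuron shows its own combination. Of 56 counted genes of the 3 clusters, 51 were below controls, 42 of them by over 0.25 and none above by as much, with a median of −0.37. The gamma cluster was lowest. Pcdhga3 had 6.56 in ELS mice against 7.45 in controls, 6.70 in ELS mice exposed to AS and 6.54 in controls exposed to AS. Pcdhga5 had 5.95 in ELS mice against 6.85 in controls, 6.00 in ELS mice exposed to AS and 5.88 in controls exposed to AS. Controls were the highest of the 4 groups for both genes, and all 12 genes of the gamma A type were below controls, with a median of −0.75. The beta cluster, whose genes have their own single exons, had a median of −0.33 with all 20 genes below controls. Within the alpha and gamma clusters genes share constant exons, so the authors' counting may spread the same reads over several of them. The genes within each of these clusters are not separate measurements. After the swim the median over the 3 clusters was 0.15.

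Lists of protein turnover and stress were mixed. Cullins and deubiquitinases, which attach and remove ubiquitin, had a median of −0.20 with none higher and 24 of 61 lower by over 0.25, whereas the 42 proteasome subunits had a median of 0.01. After the swim these medians were 0.01 and 0.08. In the unfolded protein and integrated stress response the transcription factor genes Atf5 (9.57 in ELS mice, 9.09 in controls), Ddit3 (0.38) and Atf4 (0.28) and the phosphatase subunit gene Ppp1r15a (0.36) were high. The sensor gene Ern1 was low, with 3.66 in ELS mice and 4.45 in controls, as was the chaperone gene Canx (−0.38), and the list's median was −0.15 (0.04 after the swim). In the mTOR pathway Irs2, an adaptor of the insulin receptor, had 8.52 in ELS mice and 9.39 in controls, and Foxo3 differed by −0.63. The highest members were Lamtor5 (0.34), Lamtor4 (0.33) and Lamtor1 (0.31), whose products anchor mTOR to lysosomes. The list as a whole had a median of −0.07 (−0.03 after the swim), with 4 of 44 higher and 5 lower by over 0.25.

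Among regulators of chromatin, Suv39h1, which trimethylates histone H3 at lysine 9, had 9.80 in ELS mice against 9.66 in controls, a difference of 0.13, and after the swim the ELS difference was −0.10. Kdm6a, which demethylates lysine 27, had 8.25 in ELS mice against 8.65 in controls. Histone genes had a median of 0.24, with 9 of 20 higher and 1 lower by over 0.25, against 11.7% and 11.9% of all genes. That median was −0.02 after the swim, with no gene past 0.25, and 0.11 with the length trend removed. Hist1h2bc had 10.38 in ELS mice and 9.79 in controls, and Hist2h2be differed by 0.51. Proteins of the microRNA pathway had a median of −0.11, with Cnot1 (−0.57), Ago2 (−0.54) and the exportin gene Xpo5 (−0.50) lowest, and of −0.03 after the swim.

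Long non-coding RNAs were higher in ELS mice. In the list of nuclear and imprinted long non-coding RNAs, 14 of 21 were higher and none was lower by over 0.25, with a median of 0.29. Pantr1 had 10.09 in ELS mice against 9.55 in controls, and Snhg8 had 7.82 in ELS mice against 7.23 in controls. The paraspeckle and speckle RNAs Neat1 (0.26) and Malat1 (0.41) and the imprinted Rian (0.44) were also above controls. The 15 counted hosts of small nucleolar RNAs (Snhg genes, a family chosen after its values were seen) all lay above controls, with a median of 0.38. After the swim the medians were −0.17 for the list and −0.16 for the Snhg genes. By annotation, 49 of 602 long non-coding genes were higher by over 0.5 (8.14%) and 2 were lower (0.332%), compared with 126 (0.902%) and 277 (1.98%) of 13969 protein-coding genes.

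Short transcripts tended to be higher and long transcripts lower. The genes higher by over 0.5 in ELS mice had a median transcript length of 1.69 kb and those lower by over 0.5 one of 5.62 kb, against 3.40 kb over all genes with a length. In 10 classes of equal size, the median difference was 0.20 in the shortest and −0.14 in the longest class. Spearman's rho between length and difference was −0.44 across 14694 genes, which share libraries and are not independent. For ELS mice exposed to AS against controls exposed to AS, rho was 0.05 and the medians of the shortest and longest classes were −0.03 and −0.00. With this trend removed, the medians were 0.13 and 0.14 for the large and small ribosomal subunits, −0.14 for axon guidance genes, 0.27 for microglial markers, 0.62 for metallothioneins and −0.24 for CA3 markers. The part of RNA quality or library preparation in this trend was not tested.

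**Figure D4:**
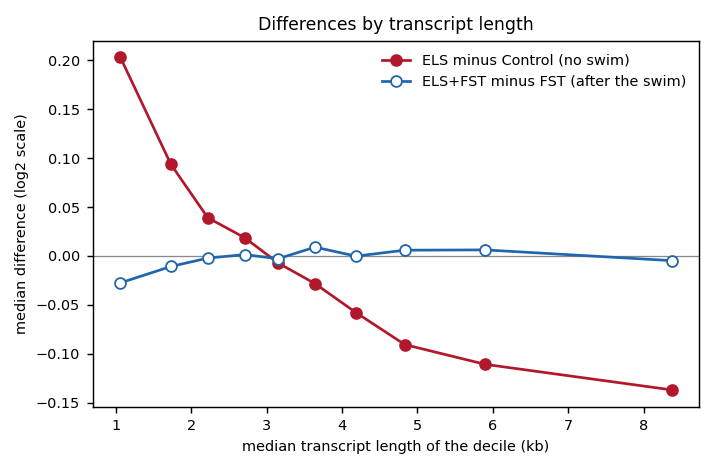
Median difference in 10 classes of transcript length, plotted at the median length of each class in kb, for ELS mice against controls without the swim (filled points) and after it (open points). The filled points go down with length, with 0.20 in the shortest and −0.14 in the longest class, and the open points stay near 0.

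The ELS difference was also taken between the mice that had swum. Between ELS mice exposed to AS and controls exposed to AS, 201 genes were higher by over 0.5 (1.34%) and 52 were lower (0.347%). Of the 195 genes higher by over 0.5 in unstressed ELS mice, 163 (83.6%) had an ELS difference within 0.25 after the swim, as had 259 of the 288 lower genes (89.9%) and 90.5% of all genes counted. Their median ELS difference after the swim was −0.02 and 0.01. Across 14986 genes Pearson's r between the differences was −0.07 and Spearman's rho −0.12. By over 0.25, 139 genes were higher in both (0.928%) and 52 were lower in both (0.347%), whereas 72 were higher without and lower after the swim (0.48%) and 133 were lower without and higher after it (0.887%).

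No gene was higher by over 0.5 in both, and 1 gene, Col6a1, was lower by over 0.5 in both (0.00667% of genes). Col6a1 had 5.03 in ELS mice against 5.65 in controls, and 4.79 in ELS mice exposed to AS against 5.83 in controls exposed to AS. The following genes were singled out after their values were seen. Ppp1r14a, a phosphatase inhibitor of myelinating cells, had 8.39 in ELS mice against 7.89 in controls, and 8.71 in ELS mice exposed to AS against 8.17 in controls exposed to AS. The scaffold gene Slc9a3r1 differed by 0.50 without and 0.49 after the swim, Cmtm5 by 0.48 and 0.65, and the myeloid gene Bin2 by 0.47 and 0.43. The calcium-binding protein genes S100a1 (0.57 and 0.31), S100a13 (0.57 and 0.35), S100a16 (0.47 and 0.35) and S100a6 (0.41 and 0.36) were also higher in ELS mice of either swim state, while S100b was not (0.61 and −0.07). On the lower side were Gm4737 (−1.02 and −0.43), the basement membrane collagen gene Col4a2 (−0.39 and −0.76) and the dynein heavy chain gene Dync1h1 (−0.37 and −0.90).

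**Figure D5:**
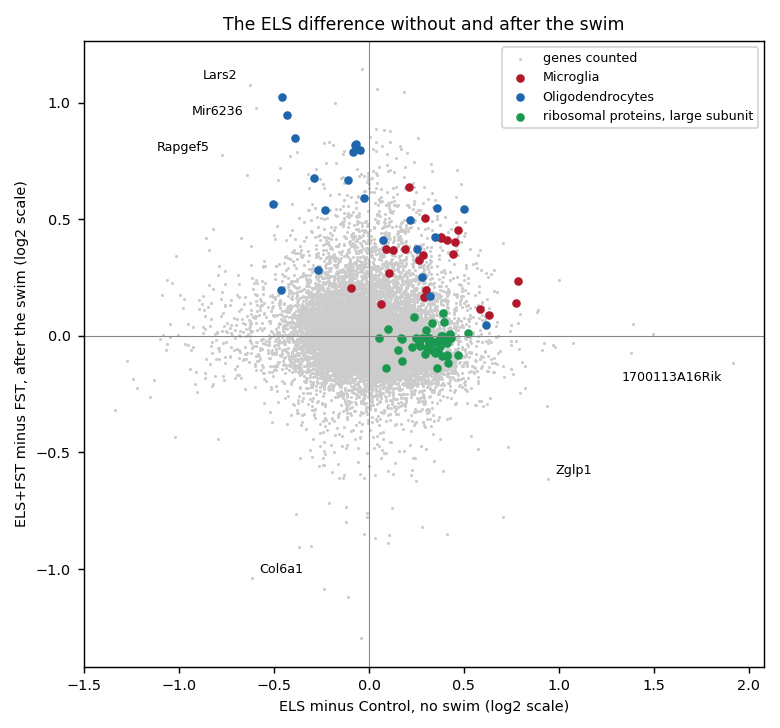
The ELS difference without the swim (x axis) and after the swim (y axis) for 14986 genes on the log2 scale, with microglial, oligodendrocyte and large-subunit ribosomal protein genes in color. Ribosomal protein genes lie to the right near 0 on the y axis, and microglial markers, with medians of 0.30 and 0.35, lie in the upper right.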

How the data were processed

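Ribosome-bound RNA from hippocampal TRAP was sequenced by the study in 3 ELS, 2 control, 3 ELS+FST and 2 FST libraries as listed in the labels, while the methods give 3 per group. The authors aligned reads to mm10 with Rsubread, quantified transcripts with Salmon, summed them to genes with tximport and transformed them with DESeq2. The deposited values are on the log2 scale (rlog), 1 value per gene and group. How libraries were combined, and whether the limma batch correction of the methods was applied, is not given in the sources used here, nor are tool versions, counts or depths per library, so no precision can be given. No column belongs to other samples.

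Of 20196 rows, 25 whose symbols had become dates were left out. Differences of group values were computed where the mean reached 3 or more, and counted past 0.5 (all genes) or 0.25 (60 gene lists). No significance test was run. Transcript lengths and gene positions came from GENCODE M21, with a length for 98.1% of counted genes, and the length trend was removed as the median difference in 50 classes of length. Promoters (250 bases before to 50 after the start, RefSeq, GRCm38.p6) matched 77.1% of counted genes. Named genes were the 15 highest and 15 lowest, the 3 highest and 3 lowest members of every list, all members of lists of up to 10 genes, and Gprin3, Suv39h1, Kdm6a, Nr3c2, Nr3c1 and Fkbp5. Members, lists and rules were chosen with earlier results of these data known. Genes outside the rule, the families of clustered protocadherins, Snhg and S100 genes included, were chosen after their values were seen. The counting steps were tested on simulated data. Alternatives were other sizes, other filters on the mean, centring on each group's median, list means and removal of the length trend. Python 3.11.15 was used with numpy 2.4.6, pandas 2.3.3, scipy 1.17.1 and matplotlib 3.10.9. Some genes that the rule names are not reported here.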

Additional observations from a re-analysis of the deposited data

Results flagged for a closer look

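For 7 genes the ELS difference was past 0.5 in opposite directions without and after the swim. The difference between the differences was not tested, as each group has 1 value. Lars2, the mitochondrial leucyl-tRNA synthetase gene, had 15.02 in ELS mice against 15.65 in controls, and 15.87 in ELS mice exposed to AS against 14.79 in controls exposed to AS, a gap of 1.70 between the differences. Mir6236 had 13.07 in ELS mice against 13.66 in controls, and 13.82 in ELS mice exposed to AS against 12.85 in controls exposed to AS, a gap of 1.57. The 4 groups stood in the same order for Lars2 and Mir6236. The origin of the reads counted for these genes was not tested, so their values may not reflect the named products. Rapgef5, an exchange factor of Rap GTPases, had 10.08 in ELS mice against 10.86 in controls, and 10.36 in ELS mice exposed to AS against 9.59 in controls exposed to AS, a gap of 1.55. The same pattern was found in Erbb3, a neuregulin receptor, with −0.64 and 0.69 (a gap of 1.33), and in Gpr37, a receptor of oligodendrocytes, with −0.50 and 0.56 (a gap of 1.07). In the other direction, the germline zinc finger gene Zglp1 differed by 0.94 without and −0.61 after the swim (a gap of −1.56), and the retrotransposed ribosomal gene Rpl37rt by 0.71 and −0.78 (a gap of −1.48). As a copy, Rpl37rt may share reads with Rpl37, so its values are uncertain. Zglp1 and Gm38431 both overlap Gm49373 on the same strand, so the reads of this locus cannot be separated with certainty.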

How the results depend on the processing

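No paired analysis was possible because the table holds 1 value per group, and for the same reason no replicate could be left out. The number of genes higher by over 0.5 in ELS mice (195) became 94 with a mean of at least 6 and 129 with the length trend removed. The number lower (288) stayed within 1.5 times under both. The filter at 6 also leaves fewer genes to count, so its counts are not shares of the same total. At a size of 0.25 the counts were 1755 and 1777, and at a size of 1 they were 5 and 18. In alternatives added after the data were seen, 126 genes were higher among protein-coding genes only, and 98 were higher and 109 lower among the 6468 genes that overlap no other gene. Centring each group on its median, a shift of −0.03, gave 249 higher and 248 lower. The share of the higher genes that were also higher after the swim (43.1%) was 31.9% with a mean of at least 6. For the lower genes that were also lower after the swim the shares were 46.2% and 46%. Over all genes counted the median ELS difference after the swim was −0.003, so genes at large lay about evenly on either side of 0. With the length trend removed, the medians of the large and small ribosomal subunits and of axon guidance genes became 0.13, 0.14 and −0.14, and 9 of the 60 list medians changed sign. For 3 of these the median was past 0.1 before, those of complex I (−0.013), complexes II to V (−0.018) and microRNA pathway proteins (0.0098), and the other 6 were within 0.1 of 0. None of the 29 genes with a transcript length among the 30 most extreme changed sign.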
